A study of Saccharomyces cerevisiae with 18 samples.

Results

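The 7 genes described here are RTC3 (YHR087W), SCM4 (YGR049W), FMP43 (YGR243W), FMP48 (YGR052W), YBR085C-A, YER053C-A and YLR415C of Saccharomyces cerevisiae. They are the poorly characterised members of the 28 ORFs that the study lists as occupied by the MAP kinase Hog1 during osmotic shock, and are 7 of 6330 uniquely named ORFs in the deposited table. Of the 7, 6 were matched by the name in the table and RTC3 through its ORF name, since the table does not carry its symbol. The genes were selected on Hog1, mock IP and input signal in wild-type cells, so those values are given as a description only. RNA Pol II occupancy was not part of the choice. Cells of the W303 background were grown in the rich medium YEPD and either mock-treated with YEPD or exposed to 0.4 M KCl for 5 min, then crosslinked. Rpb3, a subunit of RNA Pol II, was precipitated without a tag in wild type, in the Dhog1 deletion strain (Δhog1) and in the Dsko1Dhot1 strain (Δsko1Δhot1), which lacks both transcription factors Sko1 and Hot1. Hog1 carried a 3HA tag at its own locus and was measured in wild type and Δsko1Δhot1, while 3HA-Sko1 and Hot1-3HA were measured in otherwise wild-type cells. The only Δsko1Δhot1 strain that the paper lists carries this Hog1 tag, whereas untagged wild-type and Δhog1 strains are listed. Which strain gave each Rpb3 library is not stated, so the tag may also differ between the Rpb3 libraries compared. The mock IP, an anti-HA precipitation from cells with no tag, and the input, sheared chromatin without precipitation, come from wild type only and were also used for Δsko1Δhot1. Each condition is 1 library, so no replicate error, interval or p-value can be given, and every difference below describes these libraries.

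Hog1 is the terminal kinase of the high osmolarity glycerol pathway. Upon osmotic shock it is phosphorylated, enters the nucleus, and is brought to target genes by DNA-binding factors such as Sko1, a repressor turned activator, and Hot1, an activator. Hog1 is also known to travel with RNA Pol II through some of the ORFs it induces. The best known of these encode enzymes of glycerol synthesis and general stress proteins, whereas the 7 genes here have other or unknown products. RTC3 encodes a small protein that resembles the N-terminal domain of the SBDS family and is linked to RNA metabolism. SCM4 encodes a protein of the mitochondrial outer membrane whose function is unknown. FMP43, listed as MPC3 in the R64 reference, encodes a subunit of the mitochondrial pyruvate carrier, and FMP48 a predicted protein kinase found with mitochondria. The products of YBR085C-A, YER053C-A and YLR415C have no known function.

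Values of the ORF table are coverage by sequenced fragments divided by ORF length and library total, called signal here, so that levels of different genes can be set side by side. The share of cells with RNA Pol II at a gene and the amount per cell cannot be told apart. All 7 genes passed the filter on low input, which kept 6013 ORFs. YLR415C had low background in mock-treated cells, with an input of 6680 (5976th highest) and a mock IP of 3560 (5942nd). Its input in stress was 8730 (5199th). The part of these low values in its ratios and folds was not tested. Median signal per ORF was between 7220 and 8280 in the 6 Rpb3 libraries, between 9710 and 13400 in the 4 Hog1 libraries, and between 7690 and 10200 in the mock IP and input libraries. The strain labels were checked at the deleted loci. HOG1 had an Rpb3 signal of 667 and 1240 in mock-treated and stressed Δhog1 cells against 18700 and 20500 in wild type, and HOT1 had 569 and 1060 in Δsko1Δhot1 against 6350 and 7820. SKO1 was not analysed here. Changes are log2 folds, stressed over mock-treated, of signal plus 996, a pseudocount equal to 0.1 times the median input that makes folds of low values too small. A gene was counted as changed from 2-fold on.

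RNA Pol II occupancy was higher upon osmotic shock at all 7 genes in wild type, by at least 2-fold, against 4.49% of all 6013 ORFs. RTC3 went from an Rpb3 signal of 10100 to 604000, a log2 fold of 5.77 and the 5th highest fold of all ORFs. FMP48 went from 4000 to 289000, a log2 fold of 5.86 and the 3rd highest. Both started near or below the wild-type median of 7340 and ended far above it. FMP43 went from 6120 to 190000 (log2 fold 4.75, 13th) and SCM4 from 12400 to 183000 (3.78, 25th). SCM4 thus had the highest signal of the 7 before stress, and ended level with FMP43. Among the genes without a name, YER053C-A went from 5480 to 97500 (3.93, 22nd) and YBR085C-A from 6730 to 85200 (3.48, 35th). YLR415C stood apart from the other 6, since its signal only went from 6360 to 21600, a log2 fold of 1.62 that ranked 129th. The median log2 fold of the 7 genes was 3.93, beside 3.95 for the 21 other Hog1-occupied ORFs and 0.04 for all ORFs. Input was at least 2-fold higher at none of the 7, against 0.0166% of all ORFs, with log2 folds between 0.05 at YBR085C-A and 0.81 at RTC3. The input fold of RTC3 was the 5th highest of all ORFs, and its part in the Rpb3 value was not tested. With each Rpb3 library divided by the input of the same treatment, the log2 fold of RTC3 was 4.90 in place of 5.77, that of FMP48 5.20 in place of 5.86, and all 7 genes were at least 2-fold higher.

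**Figure D1:**
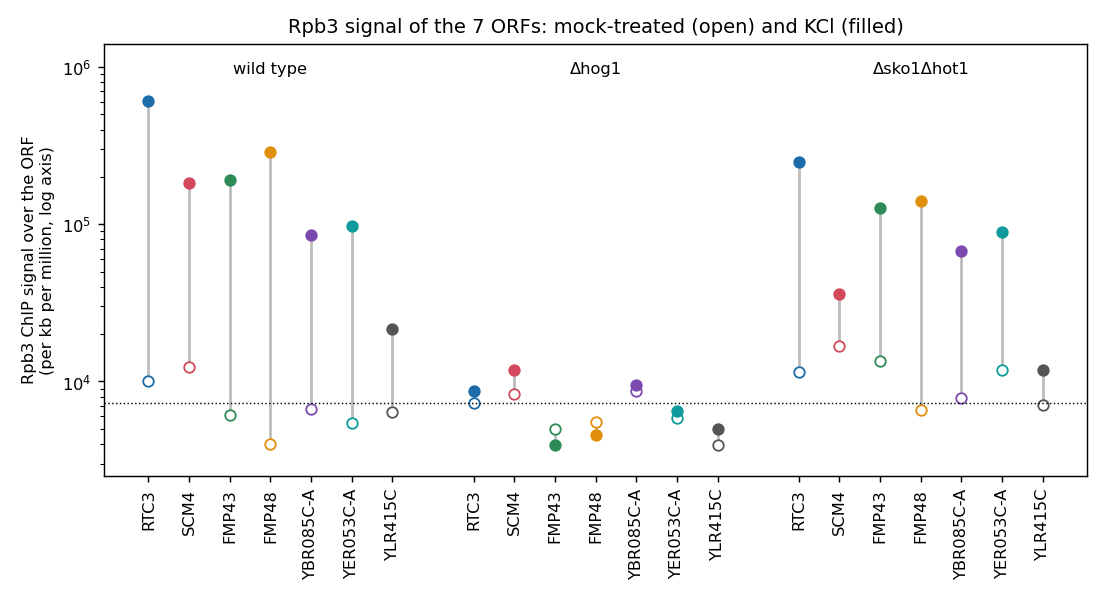
Rpb3 ChIP signal over the 7 ORFs in mock-treated (open circles) and stressed cells (filled circles) of the 3 strains, scaled to length and library total on a log axis, 1 library per point; the dotted line is the median ORF of mock-treated wild type (7340). The gaps between open and filled circles are wide in wild type, nearly closed in Δhog1, and wide again in Δsko1Δhot1 except at SCM4 and YLR415C.

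In Δhog1 none of the 7 genes changed by 2-fold in either direction, where 1.01% of all ORFs were higher and 0.0665% lower. The signal of RTC3 was 7330 in mock-treated and 8650 in stressed cells (log2 fold 0.21), and that of SCM4 8320 and 11900 (0.47, the highest of the 7). FMP43 had 4970 and 3940 (-0.27) and FMP48 5510 and 4600 (-0.22), which were lower after stress. These signs depend on the scaling, since division by the input of the same treatment, which comes from wild type, also took RTC3 (-0.55), YER053C-A (-0.055) and YLR415C (-0.041) below 0. YBR085C-A had 8760 and 9520, YER053C-A 5850 and 6480, and YLR415C 3970 and 5020. In stressed cells Rpb3 was therefore at least 2-fold lower in Δhog1 than in wild type at all 7 genes, against 5.12% of all ORFs. The stressed Δhog1 library held 1.43% of the wild-type signal at RTC3, 1.59% at FMP48 and 2.07% at FMP43, but 23.2% at YLR415C, where the wild-type signal was lowest. At all 7 genes both Δhog1 signals were below the wild-type input of the same treatment, so they cannot be told from background. With input subtracted and negative values set to 0, every Δhog1 fold of the 7 was 0. Before stress none of the 7 was at least 2-fold higher in Δhog1, where 1.26% of all ORFs were, and the differences from wild type lay between -0.57 (YLR415C) and 0.38 (FMP48) on the log2 scale.

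In Δsko1Δhot1 6 of the 7 genes were still at least 2-fold higher after stress, against 6.19% of all ORFs, and the genes differed widely in how much of the wild-type signal remained. YER053C-A went from 11800 to 89700, which is 92.0% of its stressed wild-type signal, and YBR085C-A from 7840 to 67500, or 79.2%. The log2 folds of both were lower than in wild type, 2.83 against 3.93 at YER053C-A and 2.95 against 3.48 at YBR085C-A. Before stress, YER053C-A had 2.15 times its wild-type signal. FMP43 went from 13500 to 127000 (66.8%), FMP48 from 6600 to 141000 (48.8%) and RTC3 from 11500 to 249000 (41.2%). RTC3 remained the highest of the 7 in this library and ranked 7th of all ORFs by fold, at 4.32 on the log2 scale. SCM4 lost the most: its signal went from 16800 to 35900, a log2 fold of 1.05 and 19.6% of the stressed wild-type signal. Division by the input of the same treatment took SCM4 just under 2-fold, to 0.93, and the log2 folds of RTC3 and FMP48 from 4.32 and 4.22 to 3.45 and 3.57. YLR415C went from 7050 to 11900 (55.1%), with a log2 fold of 0.68, where the stressed input was 8730. With input subtracted, its log2 difference from stressed wild type was -1.73 in place of -0.81. That of RTC3 was then -1.34 and that of FMP48 -1.12.

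Set against stressed wild type, Rpb3 was at least 2-fold lower in stressed Δsko1Δhot1 at 3 of the 7 genes, against 1.16% of all ORFs. They were SCM4 (-2.32), RTC3 (-1.28) and FMP48 (-1.03, close to the limit). The smallest differences were those of YER053C-A (-0.12) and YBR085C-A (-0.33), and the median over the 7 was -0.81, beside -1.23 for the 21 other occupied ORFs and 0.04 for all ORFs. Among those 21 the range was wider, from -5.35 to 0.27, and 11 were at least 2-fold lower. Folds in Δsko1Δhot1 ranged from -2.17 at RHR2, a glycerol-3-phosphatase gene, to 5.52 at HSP12, a membrane-associated heat shock protein gene, while the 7 genes lay between 0.68 and 4.32.

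**Figure D2:**
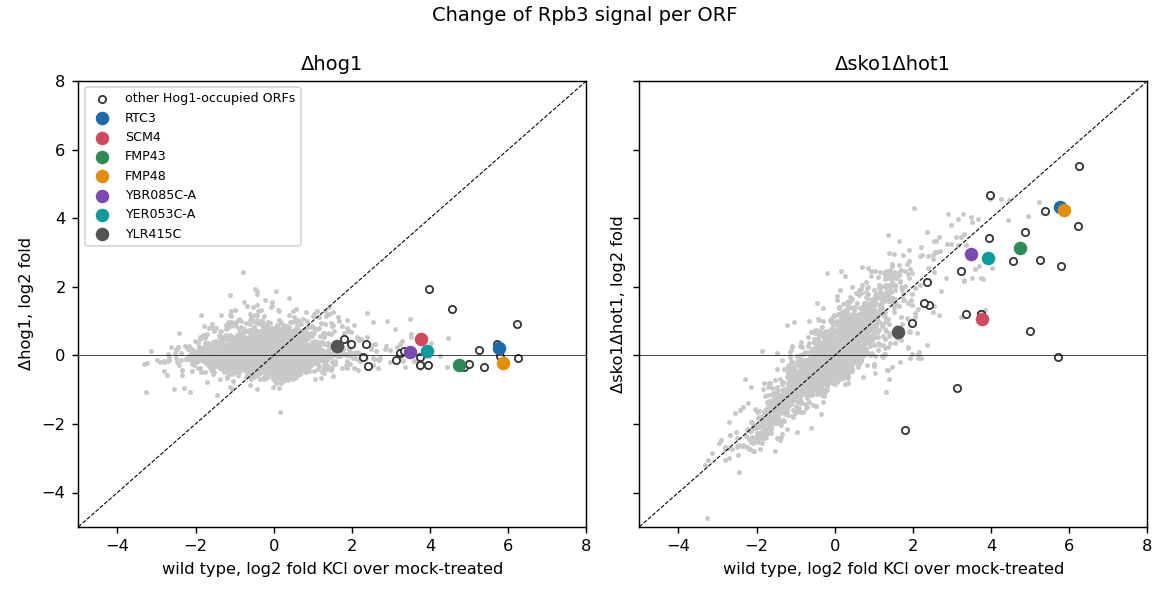
Log2 fold of Rpb3 signal (KCl over mock-treated) in wild type on the x axis against Δhog1 (left) or Δsko1Δhot1 (right) on the y axis for the 6013 ORFs (grey), the 21 other Hog1-occupied ORFs (open circles) and the 7 genes (coloured), 1 library per condition. The 7 genes lie between -0.27 and 0.47 in Δhog1, and in Δsko1Δhot1 all lie below the dashed line of equal folds, with SCM4 (1.05) farthest from it.

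The genes also differed before stress. In mock-treated cells all 7 genes had more Rpb3 signal in Δsko1Δhot1 than in wild type. The median of all ORFs was also higher, by 0.16 on the log2 scale, and RTC3 (0.17), YBR085C-A (0.19) and YLR415C (0.13) lay close to it. FMP43 had 13500 against 6120, and YER053C-A 11800 against 5480. These are log2 differences of 1.03 and 0.98, which ranked 8th and 14th of the 6013 ORFs, and FMP43 was the only member past 2-fold, against 0.2% of all ORFs. Relative to the shift of the median ORF the difference of FMP43 was 0.87. FMP48 (0.60) and SCM4 (0.41) lay between.

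The genes were also compared by their whole profile, as the Euclidean distance of log2 signal over the 6 Rpb3 libraries. Among the 7 themselves, YBR085C-A and YER053C-A were closest (1.03), followed by FMP43 and FMP48 (1.25) and by FMP43 and YER053C-A (1.27). YLR415C was at least 3.34 from each of the others. Over all ORFs, the profile nearest to FMP48 was that of CTT1, the cytosolic catalase gene (distance 0.50), then TPS2, a gene of trehalose synthesis (0.80), and YFL013W-A (0.90). RTC3 was nearest to GPD1, a glycerol-3-phosphate dehydrogenase gene (1.13), to HSP12 (1.32) and to the glucokinase gene GLK1 (1.41). FMP43 was nearest to TPS2 (0.98), the hexokinase gene HXK1 (1.00) and CTT1 (1.04). SCM4 was nearest to PRM10 (0.82), the mitochondrial aldehyde dehydrogenase gene ALD4 (1.30) and GRE2, a methylglyoxal reductase gene (1.62). YBR085C-A was nearest to AIM17 (0.76), the mitochondrial carrier gene PIC2 (0.90) and TMA10 (0.94), and YER053C-A to TMA10 (0.69), PNS1 (0.73) and the transcription factor gene CIN5 (0.93). YLR415C was nearest to SOL1 (0.49), YDL221W (0.51) and VHS3 (0.53). Of these 21 places, 7 were taken by ORFs on the study's Hog1-occupied list, with CTT1 counted for both FMP43 and FMP48. That list holds 28 of the 6013 ORFs, the 7 genes among them. The measure decides the names: Pearson correlation over the same 6 libraries, which ignores level, gave the same gene in 3 of 21 places, namely PRM10 for SCM4, and CTT1 and TPS2 for FMP48. All 6 libraries of a profile are shared between the genes compared, and no p-value is given.

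The relatives of the 7 genes by sequence had smaller folds. The pyruvate carrier subunit genes MPC1 and MPC2 are related to FMP43, and had wild-type Rpb3 folds of 0.27 and 0.76 on the log2 scale. MPC2, the highest of the relatives, had a signal of 40000 before and 68600 after stress, so that before stress it exceeded FMP43 (6120) and in stress FMP43 (190000) exceeded it. ATG33, a mitophagy gene and paralog of SCM4, went from 4830 to 7990 (0.63). SDO1, the ribosome maturation gene of the SBDS family to which RTC3 is related, went from 10500 to 8050 (-0.35). None of these 4 relatives was past 2-fold in any of the 3 strains. Of all ORFs, 4.49% were at least 2-fold higher in wild type, 1.01% in Δhog1 and 6.19% in Δsko1Δhot1. FMP names were given to proteins found in mitochondria. Apart from FMP43 and FMP48, 3 of 31 ORFs with such a name in the table were at least 2-fold higher in wild type, namely the eisosome gene FMP45 (5.27), AIM17 (2.98) and FMP40 (1.01), and the median of the 31 was 0.22. Of the 1609 other ORFs without a gene name, 78 (4.85%) were at least 2-fold higher, close to the 4.49% of all ORFs, with a median of 0.10.

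The nearest genes on each side in the order of the R64 reference are 13 ORFs. Of these, 6 were at least 2-fold higher in wild type, against 4.49% of all ORFs. PIC2, beside YER053C-A, went from 7110 to 48800 (2.62). PUN1, beside YLR415C, went from 26000 to 99900 (1.90), so that the neighbour had a higher signal than YLR415C in both libraries. The others were MCO32 beside FMP48 (1.52), GIP2 beside YER053C-A (1.48), IST2 beside YBR085C-A (1.21) and VPS36 beside YLR415C (1.10). By contrast YGR050C, which lies between SCM4 and FMP48, had an Rpb3 signal of 7390 before and 8070 after stress, and YHR086W-A, beside RTC3, had 5490 in both. Hog1 signal in wild type went from 14200 to 103000 at YGR050C and from 10600 to 72300 at YHR086W-A. In Δhog1 the Rpb3 signal of no neighbour was past 2-fold, where 1.01% of all ORFs were higher and 0.0665% lower.

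Hog1 signal in wild-type ORFs is what placed the 7 genes on the list. Here the 3 criteria of the methods were recomputed. They are a Hog1 enrichment (Hog1 minus mock IP, divided by input) in stress, a ratio of stressed to mock-treated Hog1 signal, and a stressed Hog1 signal, each more than 3 standard deviations above the median of all ORFs. The cutoffs were 1.58, 2.05 and 31202, and 0.532% of the 6013 ORFs passed all 3, the 7 genes among them. SCM4 had the highest enrichment of the 7 (5.91), with a Hog1 signal of 16600 before and 92200 after stress. RTC3 had the highest signal, going from 13300 to 115000, and the highest ratio of all ORFs (8.65), with an enrichment of 4.11. FMP48 went from 13400 to 69000 (enrichment 2.53), FMP43 from 12900 to 56600 (2.58) and YER053C-A from 11200 to 45300 (1.97). The last 2 members passed narrowly. YLR415C, going from 12300 to 31600, was just inside on signal, and YBR085C-A, going from 14000 to 32200, was just inside on enrichment (1.62). Just outside were YOL085W-A, with a ratio of 1.94, and THO1, with a signal of 29100. PUN1, the neighbour of YLR415C, had an enrichment of 1.75 and a signal of 32000 and missed on the ratio (1.82). Hog1 signal was at least 2-fold higher in stress at all 7 genes, against 0.815% of all ORFs, a contrast that the choice of members used. When the enrichment was replaced by the ratio of Hog1 to mock IP, SCM4 and YLR415C passed all 3 criteria and the other 5 did not.

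The mock IP was also at least 2-fold higher in stress at 6 of the 7 genes, against 2.08% of all ORFs, in cells that carry no tag. At RTC3 the mock IP went from 10200 to 41400, at FMP48 from 6910 to 27800 and at FMP43 from 5380 to 26900. At YER053C-A it went from 10900 to 18100, the only member under 2-fold, while YBR085C-A and YLR415C were barely past it (1.02 each on the log2 scale). Stressed Hog1 signal exceeded the mock IP by 2.10 times at FMP43 and by 5.21 times at SCM4, the lowest and highest of the 7. After subtraction of the mock IP, SCM4 and RTC3 held nearly the same Hog1 signal, 74500 and 73600, although RTC3 had more than 3 times the Rpb3 signal.

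Without Sko1 and Hot1 the Hog1 signal in stress was lower at all 7 genes, and the mock-subtracted enrichment was above the wild-type cutoff at none of them, as at nearly all ORFs (0.349% were above it). SCM4 had 13800 before and 13000 after stress, so that the higher Hog1 signal seen in wild type was not detected. RTC3 still went from 13500 to 44600, FMP48 from 12500 to 28200, FMP43 from 10100 to 27400 and YER053C-A from 6380 to 22700. These 4 were at least 2-fold higher, against 1.21% of all ORFs. YBR085C-A went from 9960 to 20700, just under 2-fold on the scale used (0.99), and YLR415C from 9380 to 14100 (0.54). Relative to stressed wild type, Hog1 signal was at least 2-fold lower at 5 of the 7, against 2.25% of all ORFs, from -2.74 at SCM4 to -0.61 at YBR085C-A, where the median ORF was at -0.38. Relative to that median, SCM4 (-2.35) was the only member past 2-fold, against 0.649% of all ORFs, and RTC3 was at -0.97. The members were chosen for high stressed Hog1 signal and enrichment in wild type. Lower values beside those, here and above, were favoured by that choice. The enrichment in stressed Δsko1Δhot1 lay between -0.37 at SCM4 and 0.67 at YLR415C, with a median of 0.18, equal to that of all ORFs to 2 decimals. It subtracts the mock IP of stressed wild type, whose signal in these ORFs was itself high (41400 at RTC3, against a Hog1 signal of 44600 in Δsko1Δhot1). No mock IP of the deletion strain was used, so how much tag-specific Hog1 signal remained there cannot be told. At the HOG1 locus itself, the Hog1 signal was 118000 before and 96400 after stress in wild type and 17800 and 15300 in Δsko1Δhot1, and the part of this difference between the strains in the values above was not tested.

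The amount of Hog1 relative to RNA Pol II differed among the 7 genes. In stressed wild type the Hog1 signal per Rpb3 signal was 0.190 at RTC3, 0.239 at FMP48, 0.298 at FMP43, 0.378 at YBR085C-A, 0.465 at YER053C-A, 0.504 at SCM4 and 1.46 at YLR415C. The median of the 21 other occupied ORFs was 0.224, and that of all ORFs, most of which have little Rpb3 signal, was 1.75. SCM4 and FMP43 make the plainest pair, since they had nearly equal Rpb3 signal (183000 and 190000) and Hog1 signals of 92200 and 56600. However, YGR050C, the ORF next to SCM4, had a stressed Hog1 signal of 103000 at an Rpb3 signal of 8070. The part of this neighbouring signal in the Hog1 value of SCM4 was not tested. In stressed Δsko1Δhot1 the ratio was 0.179 at RTC3, 0.253 at YER053C-A and 0.362 at SCM4, and was lower than in wild type at all 7 genes. The median of all ORFs was lower as well, at 1.28, but that of the 21 other occupied ORFs was higher, at 0.277 against 0.224. Median Hog1 signal per ORF was 13000 in stressed wild type and 9710 in stressed Δsko1Δhot1. The stressed wild-type Hog1 signal in this ratio was also used to choose the members. With the mock IP subtracted from Hog1 and input from Rpb3, the ratio was lower at 6 of 7 genes. The values were then 0.437 and -0.20 at SCM4 and 0.325 and 0.061 at YER053C-A in wild type and Δsko1Δhot1, and YLR415C was the exception with 1.81 and 1.84.

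**Figure D3:**
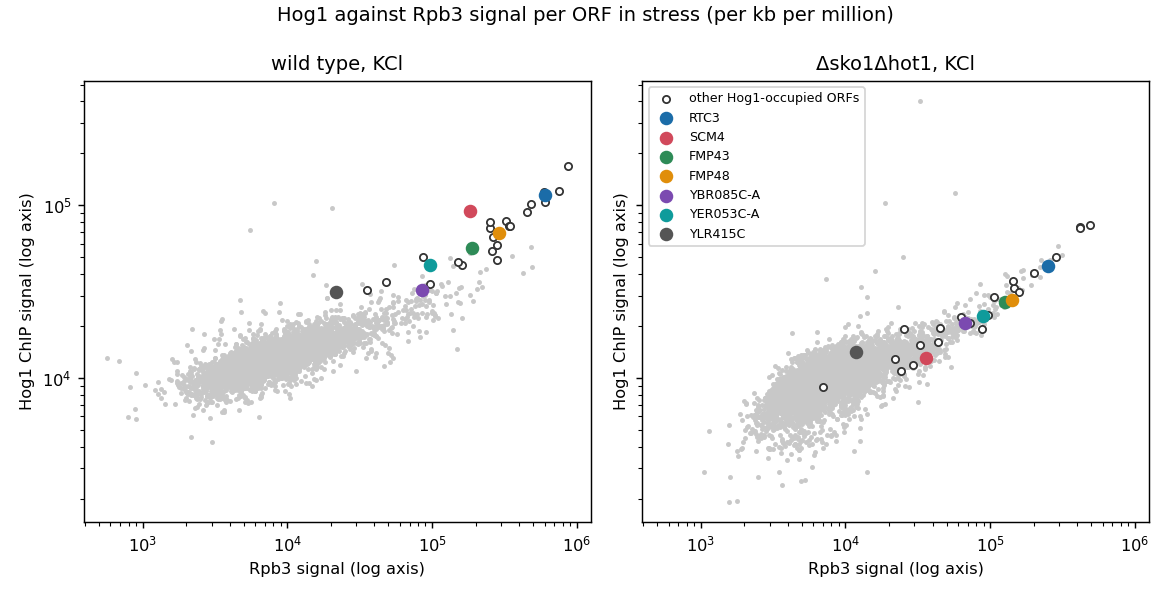
Hog1 against Rpb3 ChIP signal over ORFs in stress, scaled to length and library total on log axes, in wild type (left) and Δsko1Δhot1 (right), for the 6013 ORFs (grey), the 21 other Hog1-occupied ORFs (open) and the 7 genes (coloured). In wild type SCM4 (Hog1 92200) lies above FMP43 (56600) at nearly the same Rpb3 signal, and in Δsko1Δhot1 SCM4 (13000) lies among the grey points.

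Regions beside the ORFs were deposited in tables of promoters (1000 bp upstream) and downstream regions (50 to 500 bp), but the heads of their wild-type columns conflict with the ORF table. For SCM4 downstream, the column headed input read 13000 before and 101000 after stress, while that headed Hog1 read 7160 and 6160. The ORF that lies next to SCM4 on that side, YGR050C, had a Hog1 signal of 14200 and 103000 in the ORF table. Each promoter column was therefore set against the ORF next to it on that side, over 5357 pairs. The column headed input matched Hog1 in the ORF table best (Spearman 0.65 for both treatments), that headed mock IP matched input (0.56 and 0.49), and that headed Hog1 matched mock IP (0.63 and 0.44). The columns headed Hog1 of Δsko1Δhot1 matched their own library. The same pattern held downstream over 5499 pairs, so that 12 of the 16 columns were most like a library other than the one in their head. These are rank correlations over regions of the same libraries, given as a description. Values are given below by head as deposited, and enrichments also with the heads read this other way, a reading chosen after the data were seen.

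The column headed input was higher after stress in the promoter of each of the 7 genes, a share not counted over all regions. Read the other way, this column is wild-type Hog1, whose signal in the adjoining ORFs was used to choose the members. High stressed values were then favoured by that choice. In the FMP48 promoter the column headed input went from 12800 to 80000 and in that of RTC3 from 9840 to 76000, the 8th and 11th highest of 6609 promoters. The promoters of FMP43 (12100 and 34700), YER053C-A (10400 and 32000), SCM4 (12600 and 28900) and YBR085C-A (12100 and 24300) followed, and that of YLR415C had 13700 and 23500. Downstream, SCM4 was the 3rd highest of all regions (101000), then RTC3 (12800 and 67700) and YER053C-A (10700 and 46700). YLR415C (32600), FMP48 (30700), FMP43 (28300) and YBR085C-A (27300) were lower. SCM4 thus had its higher signal downstream and FMP48 upstream, which are the sides that face each other across YGR050C. The column headed mock IP changed by less than 1.5 times at each of these 14 regions, a share also not counted over all regions. That headed Hog1 of wild type was higher after stress downstream of 6 of the 7 genes, a share not counted over all regions. It rose most downstream of RTC3 (7130 and 26000) and YER053C-A (7630 and 18500). In the RTC3 promoter the same column was lower after stress (22400 and 7700). That headed Hog1 of Δsko1Δhot1 stood between 7060 and 11000 in stressed promoters, and reached 15300 downstream of RTC3 and 18800 downstream of YER053C-A.

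With the heads as deposited, Hog1 enrichment in stress lay between -0.09 and -0.003 in the 7 promoters and between -0.03 and 0.21 in the downstream regions. With the heads read the other way, it lay between 1.93 (YLR415C) and 8.62 (RTC3) in 6 promoters, was higher still in that of FMP48, and lay between 1.96 (YBR085C-A) and 10.4 (SCM4) downstream. The cutoff of 3 standard deviations was set by a few regions with very low divisors and was passed by none of the 14 in either reading, where 0.108% of promoters and 0.262% of downstream regions passed as headed, and 0% in the other reading. Leaving out the 5% of regions with the lowest divisor, also a choice made after the data were seen, gave 1.23% of promoters and 1.21% of downstream regions past the cutoff in the other reading. Of the members, 5 promoters (all but SCM4 and YLR415C) and 5 downstream regions (all but YBR085C-A and YLR415C) then passed, beside 18 and 15 of the 21 other occupied ORFs. In that reading the median enrichment of the 7 promoters went from 3.28 in wild type to 0.35 in Δsko1Δhot1, and that of the downstream regions from 2.63 to 0.03. The median of all promoters went from 0.52 to 0.16 and that of all downstream regions from 0.58 to 0.10. The members were chosen for high stressed Hog1 in wild-type ORFs, so lower values in Δsko1Δhot1 were favoured here too. The mock IP and input of wild type again served for both strains.

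**Figure D4:**
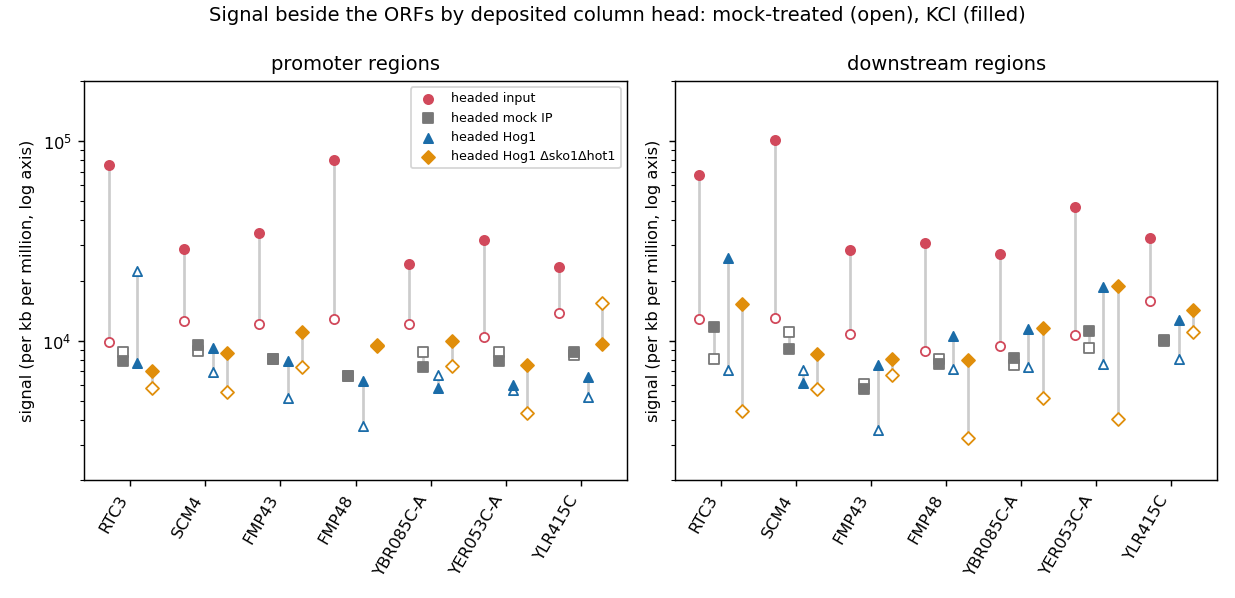
Signal scaled to length and library total (log axis) in the promoter (left) and downstream regions (right) of the 7 genes, by the head of the deposited column, in mock-treated (open) and stressed cells (filled), 1 library per point. The column headed input is higher after stress in all 14 regions, up to 101000 downstream of SCM4, while that headed mock IP changes by less than 1.5 times. The shares over all regions were not counted.

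Peaks of Sko1 and Hot1 were read at 4 loci, those of RTC3, SCM4, FMP43 and YER053C-A, for which the study places a predicted binding site in the coordinates of the files (sacCer2), and include every peak within 1000 bp of it. The other 3 genes were not analysed here, although the site of SCM4 lies downstream of it, towards YGR050C and FMP48. Heights are in overlapping tags, each list comes from 1 library, and it is not stated how libraries were scaled to each other, so ranks within a list are given. At RTC3, Hot1 had the peak chr8:280009-281497, 4th by height of 12548 Hot1 peaks in stress (height 1262, ratio of IP to input 6.02). Sko1 in stress had chr8:279996-281566 (height 559, 106th of 12149), and before stress only a peak of height 90, ranked 2404th of 7215, lay in this window. RTC3 was thus the locus with the tallest Hot1 peak of the 4. The paper reports expression defects of some Hot1 targets in cells with tagged Hot1, and proposes that the tag may alter its function.

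At SCM4 both factors had a peak over the same stretch. Sko1 had chr7:592042-593190 before stress (height 718, 52nd) and chr7:591385-593220 in stress (1137, 47th), and Hot1 had chr7:592019-593125 (636, 15th by height and 6th by ratio, at 10.6). In stress the tallest peaks at RTC3, SCM4 and YER053C-A covered a predicted site. No listed peak at FMP43 did, but its window held the tallest Sko1 peaks of the 4 loci. They were chr7:976902-977235 before stress (height 1017, 32nd by height and 14th by ratio) and chr7:976917-977802 in stress (1628, 26th), and the Hot1 peaks there were lower, chr7:976929-977245 (203) and chr7:977319-977805 (330). The tallest Sko1 peak of YER053C-A in stress was the lowest of the 4 loci, chr5:260275-261837 (430, 142nd), over a stretch where 3 separate peaks stood before stress with heights between 87 and 238. Its Hot1 peak was chr5:260381-261140 (304, 123rd). The 4 loci were taken where the study predicts a site and the lists are long, so the presence of some peak in the window is not a result. The study found the motifs behind these sites in Sko1 and Hot1 peaks of its own experiments. A peak that covers a site is therefore not a result either. Most peaks in these lists are low (median height 84, 135 and 114). Among the 100 peaks with the highest ratio of each list SCM4 and FMP43 appeared for Sko1, before and in stress, while RTC3, SCM4 and FMP43 appeared for Hot1.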

How the data were processed

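Samples were grouped by their labels. Each condition had 1 library, and 17 of the 18 libraries entered the analysis. The authors deposited a coverage signal per ORF, promoter and downstream region, which they name RPKM, and Sko1 and Hot1 peaks with a height and a ratio of IP to input, which they called per library by a PeakSeq procedure. Reads were aligned with Bowtie to sacCer2 (submitters' processing notes) or with ELAND (supplement), with no version given. Library depth is not given per library, so no counting interval was computed. Rows sharing a name (4) and the 5% of ORFs lowest in input were dropped. Folds were log2 with 996 added. No test was run, and computations in Python 3.11.15 with pandas were checked on simulated libraries. Genes were named by a rule: the members, relatives by sequence, neighbours in the R64 reference, nearest Rpb3 profiles, ORFs beside the cutoffs, and deleted loci. A relative listed for YBR085C-A was left out, because the relation could not be checked. Peaks were located by predicted sites of the study, since no annotation of that build was used here. Members and lists were chosen with earlier results of these data known. Alternatives were another pseudocount, filter, scaling, background, cutoff and peak selection.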

Additional observations from a re-analysis of the deposited data

Results flagged for a closer look

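For 3 results the change under osmotic shock had opposite signs in a pair of strains. With 1 library per condition the differences were not tested. FMP43 had an Rpb3 log2 fold of 4.75 in wild type and -0.27 in Δhog1, and FMP48 had 5.86 and -0.22. For both genes the Δhog1 signal lay below the median of its library (7330 before and 7220 after stress), and its change was under 2-fold. Both signals of each gene also lay below the wild-type input. After division by the input of the same treatment, RTC3 (-0.55), YER053C-A (-0.055) and YLR415C (-0.041) were also below 0 in Δhog1. SCM4 had a Hog1 log2 fold of 2.41 in wild type and -0.080 in Δsko1Δhot1, where the Hog1 signal was 13800 before and 13000 after stress.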

How the results depend on the processing

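No paired analysis was possible because each condition is 1 library, and for the same reason no library could be left out. Under every alternative run, the Rpb3 fold of wild type kept 6 or 7 members past 2-fold, that of Δhog1 none, and stressed Δhog1 over wild type all 7. With input subtracted and negative values set to 0, no member could change in Δhog1. With the median input as pseudocount YLR415C was at 0.95 in wild type and SCM4 at 0.78 in Δsko1Δhot1. In mock-treated Δsko1Δhot1 over wild type, the 1 member past 2-fold became 2 with no pseudocount, 0 with the median input or after centring, and 3 after subtraction of input. The median of stressed Δsko1Δhot1 over wild type became -1.12 after subtraction of input. Members at least 2-fold lower there (3) were 2 with the median input and 4 after subtraction of input, YLR415C (-1.73) among them. Hog1 of stressed Δsko1Δhot1 was at least 2-fold lower at 5 members and, after centring, at 1; the mock IP was higher at 6 and, after centring, at 4. All 7 members passed the Hog1 criteria, 2 with Hog1 over mock IP, and 0 without the input filter, where no ORF passed. Counts over all ORFs moved more. ORFs higher in wild type (270) were 140 with the median input and 506 after subtraction of input. In Δhog1 those higher (61) were 18 and 486 under the same alternatives, and those lower (4) were 14 with no pseudocount, 1 with the median input, 7 after division by input and 93 after its subtraction. In Δsko1Δhot1 those higher (372) were 197 and 781. For mock-treated Δhog1 over wild type, 76 higher ORFs became 198 with no pseudocount and 1 with the median input. For mock-treated Δsko1Δhot1 over wild type, 12 became 69, 2, 4 after centring, and 148 after subtraction. Lower in stressed Δhog1 than wild type were 308, then 153 and 783, and in stressed Δsko1Δhot1 70, then 44 and 343. ORFs past the Hog1 criteria (32) were 7 with Hog1 over mock IP and 53 at 2 standard deviations. Promoters past the cutoff (7 as headed) were 4 with Hog1 over mock IP or at 4 standard deviations, 11 at 2, and 0 in the other reading of the heads. With the lowest divisors left out they were 99 as headed and 77 in the other reading, the latter with 5 members. Downstream regions (17) were 0 in the other reading, and with the lowest divisors left out 58 and 76, the latter with 5 members. Among the 100 peaks with the highest ratio, 2 of 4 loci had a Sko1 peak before and in stress. The causes of these differences were not tested.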
